A study of Mus musculus with 24 samples.

Results

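C1q-high tumor macrophages are described here in subcutaneous Panc02 tumors of mice given the neoantigen vaccine PancVAX, checkpoint antibodies, or both. Panc02 is a mouse pancreatic cancer cell line. A member was a cell barcode with at least 1000 UMIs (unique molecular identifiers, each counting 1 captured RNA molecule), under 10% mitochondrial UMIs, at least 20 UMIs of *C1qa*, *C1qb*, and *C1qc* together per 10000 UMIs, and no UMI of *Cd3d*, *Cd3e*, *Cd3g*, or *Cd79a*. The rule took 18965 of 120912 barcodes that passed the UMI and mitochondrial limits (15.7%), out of 144994 deposited. Members were chosen by their measured C1q level, so that level, and every contrast of gene levels in members with those in other barcodes, is a description without a test.

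The study compared 8 treatments of WT C57BL/6 male mice aged 6 to 7 weeks at implantation, with 1 library of dissociated whole tumor and 1 library from a Percoll density gradient for each treatment, 16 in all. The treatments were Isotype Control, Anti-PD-1, Anti-CTLA-4, Anti-PD-1 + Anti-CTLA-4, PancVAX, PancVAX + Anti-PD-1, PancVAX + Anti-CTLA-4, together with PancVAX + Anti-PD-1 + Anti-CTLA-4. The paper describes the PancVAX group as also given isotype antibodies, which its label does not name. Mice received PancVAX, at 50 ug per peptide by the study's methods, on days 12 and 19 after implantation, with the adjuvant AddaVax and a STING agonist, or PBS in its place. Anti–PD-1 was given from day 12 and anti–CTLA-4 on days 15 and 22, each at 100 ug, and tumors were taken on day 38. Each library held pooled mice, and the sources used here do not say whether both libraries of a treatment came from the same mice, so *P* values measure the spread between libraries or pools, part of which may be technical. The preparations were also sequenced as separate batches, so preparation and batch cannot be told apart.

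C1q is the recognition part of the classical complement pathway. It binds antibody complexes and dying cells, and 3 genes, *C1qa*, *C1qb*, and *C1qc*, encode its chains. In tissues it is made largely by macrophages, which depend on the receptor encoded by *Csf1r*, take up debris and lipid, present antigen, and respond to interferons. In tumors, C1q-expressing macrophages are often found beside monocyte-derived cells with inflammatory or hypoxia programs.

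Members had a median of 158 C1q UMIs per 10000, and 80% of them lay between 54.2 and 251. Just inside the limit, 338 barcodes held 20 to 25 per 10000, and just outside it 588 held 15 to 20. Among the other barcodes the median was 0, and 32.4% held a C1q UMI, which free RNA in droplets can give. The lymphoid condition left out 1362 barcodes at or above the C1q limit (6.70%). In the Percoll libraries, where T cell receptor contigs were also read, 3 of 8474 members (0.0354%) had such a contig, compared with 14.9% of other barcodes and 31.3% of the 521 barcodes that had the C1q level and a *Cd3* UMI. The rule had removed barcodes with a *Cd3* UMI, so few contigs among members partly follow from the selection.

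The members carried the genes of macrophages. *C1qa*, *C1qb*, and *C1qc* had a UMI in 99.1%, 99.5%, and 99.1% of members, compared with 14.6%, 16.6%, and 13.9% of other barcodes. *Csf1r* was detected in 79.4% of members and 4.80% of others. *Apoe*, which carries lipid, was detected in 97.4% and 25.5%, and *Ms4a7*, a macrophage surface gene, in 84.1% and 4.42%. Members were shallower (median 6244 UMIs, compared with 12389 in other barcodes), and macrophage genes were still detected more often in them. The antigen presentation gene *H2-Ab1* was detected in 97.0% of members, the cytokine gene *Il1b* in 73.2%, the CXCR3 ligand *Cxcl9* in 64.2%, the mannose receptor *Mrc1* in 56.4%, and *Cd274*, which encodes PD-L1, in 34.6%. *Arg1* (5.15%) and *Nos2* (0.459%), the arginine enzymes often used to mark alternative and classical activation, were detected in few members. After the rule removed barcodes with a *Cd3* UMI, markers of T cells were rare, with *Cd8a* in 0.786% and *Trbc2* in 0.369%. *Krt18*, a keratin of the tumor cells, was detected in 16.8% of members and 68.1% of others, and *Spp1*, a phosphoprotein gene, in 23.4% and 68.0%.

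**Figure D1:**
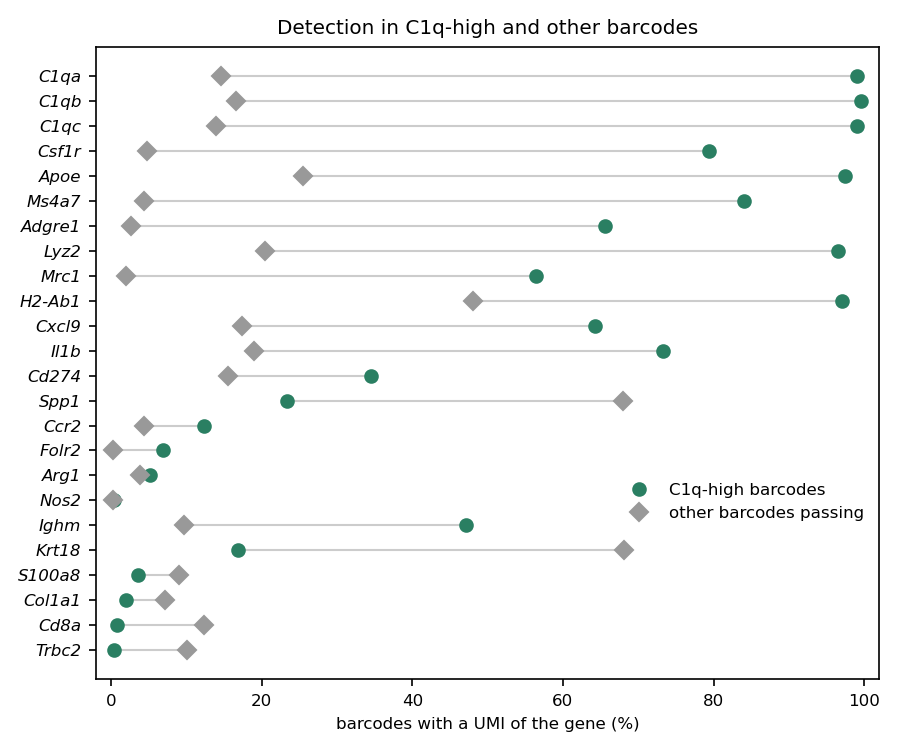
Percentage of barcodes with at least 1 UMI of each gene (x axis) in 18965 C1q-high barcodes (green circles) and in the other barcodes that passed (gray diamonds), for 24 genes. Macrophage genes sit far to the right in members, *Krt18* and *Spp1* sit to the right in the other barcodes, and *Nos2* sits near 0 in both.

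The members were not uniform. Clustering split them into 16 groups, described by their leading genes, since the same values formed the clusters. The most populous held 5182 members (27.3%) and was led by *Il1b*, *Rgs1*, *Junb*, and *Fos*. A group of 3542 was led by *Selenop*, *Lyz2*, *Apoe*, and *Cx3cr1*, and *Mrc1* was detected in 78.7% of it. Another 2207 were led by the proliferation genes *Stmn1* and *Pclaf*, with the cell cycle gene *Mki67* in 64.2%. A group of 1167 led by *Crip1* and *Ccl6* had *Ccr2*, the receptor of monocytes for *Ccl2*, in 65.3%. A group of 690 was led by *Hmox1*, *Pf4*, and *Cxcl2*, with *Arg1* in 37.4%. The interferon-induced genes *Isg15*, *Irf7*, and *Ifit3* led 331 members.

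Several groups were low in depth or carried genes of other cells. A group of 3640 had a median of 1619 UMIs and no gene far above the rest. A group of 1358 was led by *S100a6* and *Fn1*, with *Krt18* in 91.5%, a median of 18590 UMIs, and 50.2% of its barcodes called as doublets by Scrublet. A group of 435 was led by the neutrophil genes *S100a9* and *S100a8*. In all, 8 groups were set aside as other-cell clusters (under 100 members, or *Krt18*, *S100a8*, or *Col1a1* in at least 50% of members), and the comparisons were repeated on the 16951 members left. The set-aside share was 5.76% to 26.8% by library and highest in the Percoll library of PancVAX + Anti-PD-1. That library also had the highest summed levels in members of 8 tumor or epithelial markers (512 CPM, UMI counts summed over the members of a library and scaled to its effective size by TMM, over a range of 114 to 512 in the 16 libraries) and of 9 fibroblast or stromal markers (489 CPM, over a range of 105 to 489). Named calls between preparations that were lost without it are given with their values without it. Scrublet called under 0.5% of all barcodes in 3 libraries (0.0114%, 0.0188%, and 0.0493%), and its threshold did not work there.

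The share of C1q-high barcodes was lower in Percoll libraries. It ranged from 13.5% to 21.4% of barcodes in the 8 whole-tumor libraries (median 18.5%) and from 11.3% to 15.7% in the 8 Percoll libraries (median 13.6%). The ranges overlapped, but within each treatment the Percoll library was the lower one, by 0.697 to 7.63 percentage points. Since the share is a part of all barcodes, fewer macrophages and more of other cells cannot be told apart.

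**Figure D2:**
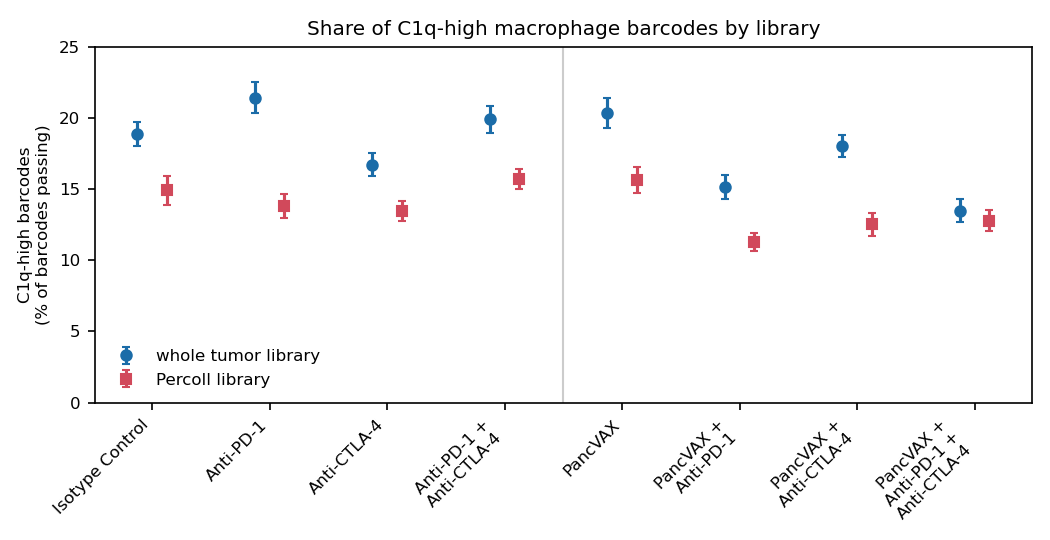
Share of C1q-high barcodes among barcodes that passed (y axis, %) for 8 treatments (x axis), with whole-tumor libraries as blue circles and Percoll libraries as red squares. Bars are exact 95% binomial intervals, which cover counting error only, and the gray line separates treatments without and with PancVAX. Every Percoll library lies below the whole-tumor library of its treatment.

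For tests of each agent, the mean share of the 2 libraries of a treatment was taken as 1 pool, giving 4 pools with the agent and 4 without. With PancVAX the share was 14.9% ± 2.29 (SD, n = 4) and without it 16.9% ± 1.245 (SD, n = 4), a difference of −1.96 points (exact two-sided permutation test, *P* = 0.257; Benjamini-Hochberg adjusted over 3 agents, 0.6). With anti–PD-1 it was 15.4% ± 2.63 compared with 16.3% ± 1.38 (exact permutation test, *P* = 0.6, adjusted 0.6). With anti–CTLA-4 it was 15.3% ± 1.92 compared with 16.4% ± 2.20 (exact permutation test, *P* = 0.486, adjusted 0.6). Leaving out 1 pool at a time gave differences of −2.985 (without PancVAX alone) to −1.37 points for PancVAX, −1.66 to −0.0968 for anti–PD-1, and −2.18 to −0.371 for anti–CTLA-4. The smallest *P* that 4 pools against 4 allow is 0.0286, which for a single agent becomes 0.0857 after adjustment over the 3 agents, so 1 agent alone could not pass 0.05. The log2 ratio of C1q-high barcodes to barcodes of *Ccr2* *Ly6c2* monocytes was 5.36 ± 0.347 with PancVAX and 5.39 ± 0.491 without (exact permutation test, *P* = 0.943), but it rested on 16 to 52 monocyte barcodes a library. The limits on UMIs and genes that the study used, with no hemoglobin UMI, keep 71.1% of members. They were applied to all barcodes, and barcodes other than members had a median of 12389 UMIs, over the limit of 10000. On this different base the shares were 21.2% ± 3.08 with PancVAX and 27.5% ± 2.60 without (exact permutation test, *P* = 0.0286, adjusted 0.0857).

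For genes, UMIs were summed over the members of a library or pool and tested by edgeR across all genes. A gene was called at a Benjamini-Hochberg adjusted *P* under 0.05 with a log2 fold change over 0.5 in either direction. In summed UMIs, fewer cells of a kind and less RNA per cell cannot be told apart.

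The preparations differed most. In C1q-high macrophages of Percoll libraries, 5 chemokine genes, *Tnf*, *Il10*, and several early response genes were higher than in those of whole tumor, and 6 genes of tissue-resident type macrophages were lower. Of 12530 genes, 466 were called (3.72%), with 282 higher in Percoll (2.25%) and 184 lower (1.47%). Without other-cell clusters 754 were called, 343 higher and 411 lower. Of the 466, 403 were among them. DESeq2 called 333, with 326 of the 466 among them. Within the study's limits 374 were called, with 250 of the 466 among them.

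Among 21 chemokines tested, 5 were higher and none lower by edgeR, and 10 were higher and 2 lower at an unadjusted *P* under 0.05 (background 17.6% higher and 16.4% lower). The neutrophil chemokine *Cxcl2* ranged from 869 to 2401 CPM in Percoll libraries (median 1241) and from 328 to 994 CPM in whole-tumor libraries (median 479). The ranges overlapped, and *Cxcl2* was higher in Percoll in 8 of 8 treatments (log2 fold change 1.39, SE 0.08, edgeR, Benjamini-Hochberg adjusted *P* = 2.0e-07). *Cxcl1* and *Cxcl3*, of the same family, rose by 1.54 and 1.12 on the log2 scale. *Ccl4* ranged from 1328 to 2141 CPM in Percoll (median 1471) and from 724 to 1325 CPM in whole tumor (median 851), which did not overlap, and rose by 0.77, and *Ccl3* rose by 0.71.

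Cytokine genes moved with them. *Il10*, an anti-inflammatory cytokine, ranged from 14.6 to 54.1 CPM in Percoll (median 22.0) and from 4.44 to 26.5 CPM in whole tumor (median 8.40). It was higher in Percoll in 8 of 8 treatments, with overlapping ranges (log2 fold change 1.36, SE 0.11, edgeR, Benjamini-Hochberg adjusted *P* = 3.4e-06). *Tnf*, an inflammatory cytokine, ranged from 92.4 to 178 CPM in Percoll (median 128) and from 47.7 to 89.5 CPM in whole tumor (median 49.2). Its groups did not overlap (log2 fold change 1.20, SE 0.08, edgeR, Benjamini-Hochberg adjusted *P* = 1.0e-06), a pattern that 1.21% of all genes showed in this direction. *Tnf* and *Il1a* (0.58) were the 2 of 14 classical activation genes called, both higher. Without treatment in the fit *Il1a* was not called. *Il1b* was higher by 0.38, under the fold limit.

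All 17 immediate early and stress genes tested were higher at an unadjusted *P* under 0.05, and 4 were called: the NF-kB inhibitor *Nfkbia* (0.82), the chaperone cofactor *Dnajb1* (0.68), and the transcription factors *Jun* and *Atf3* (0.52 each). Within the study's limits *Atf3* was under the fold limit (0.47). The median log2 fold change of the list was 0.39, beside −0.005 over all genes. Outside the lists, the transcriptional regulators *Id1* (25.7 to 51.7 CPM in Percoll and 9.39 to 19.8 CPM in whole tumor) and *Id2* (480 to 817 CPM and 207 to 334 CPM) did not overlap and rose by 1.49 and 1.23. *Gadd45g*, a stress-response gene, ranged from 105 to 125 CPM in Percoll and from 36.4 to 54.7 CPM in whole tumor and rose by 1.38. The cluster of members led by *Il1b* and *Junb* took 21.1% to 41.3% of members in Percoll libraries and 15.2% to 29.7% in whole-tumor libraries.

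Genes of tissue-resident type macrophages went the other way. Of 12 tested, none was called higher and 6 were called lower, with a median log2 fold change of −0.56. *Folr2*, a folate receptor, ranged from 8.26 to 32.1 CPM in Percoll (median 16.3) and from 18.9 to 60.5 CPM in whole tumor (median 35.5). It was lower in Percoll in 8 of 8 treatments, with overlapping ranges (log2 fold change −1.19, SE 0.09, edgeR, Benjamini-Hochberg adjusted *P* = 3.6e-06). *Lyve1*, the hyaluronan receptor, ranged from 0.124 to 3.39 CPM in Percoll and from 0.618 to 22.5 CPM in whole tumor, and fell by 3.61 on the log2 scale. *Cbr2*, *F13a1*, the hemoglobin scavenger receptor *Cd163*, and the bridging molecule *Gas6* fell by 1.11, 1.26, 1.38, and 0.54. *Mrc1* was lower by 0.35, under the fold limit. Without the Percoll library of PancVAX + Anti-PD-1, *Gas6* was lower by 0.48, under the fold limit.

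Other functions had fewer calls. In the alternative activation list of 14 genes, *Il10*, *Vegfa*, and the cytokine signaling inhibitor *Socs3* (0.60) rose and *Cd163* fell. Of 16 macrophage identity genes, the endotoxin co-receptor *Cd14* rose by 0.54 and the transcription factor *Maf* fell by 0.56. *Cd14* was not called without treatment in the fit. The chemokine scavenger *Ackr3* rose by 1.498 but was not called within the study's limits. Of 20 cell cycle genes, the kinetochore gene *Cenpf* fell by 0.55, and outside the lists the histone gene *Hist1h2ap* fell by 1.12 and *B930036N10Rik* rose by 1.42. In the list of 10 neutrophil markers, the lipolysis inhibitor *G0s2* fell by 1.74 and the decoy receptor *Il1r2* rose by 1.14, while the markers summed to 204 to 468 CPM in Percoll and 257 to 488 CPM in whole-tumor libraries. The matrix genes *Mmp12* (0.98), *Plaur* (0.71), and *Plau* (0.67) rose, 3 of 18 in their list. *Vegfa*, an angiogenic factor (0.66), *Havcr2*, which encodes TIM-3 (0.54), the class I gene *H2-Q6* (0.55), and the interferon-induced *Oasl1* (0.99) were each the only call among hypoxia genes, checkpoint genes, MHC class I genes, and type I interferon genes. The GTPase genes *Irgm2* and *Iigp1* of the interferon-γ list fell by 0.63 and 0.53, and without the Percoll library of PancVAX + Anti-PD-1 *Iigp1* was lower by 0.49, under the fold limit. None of 12 MHC class II, 18 lysosomal, and 20 lipid handling genes was called (edgeR), with median log2 fold changes of 0.24, 0.12, and 0.12. In the MHC class II list, 11 genes were higher and 1 lower at an unadjusted *P* under 0.05. Within the study's limits *Havcr2* was under the fold limit (0.42).

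**Figure D3:**
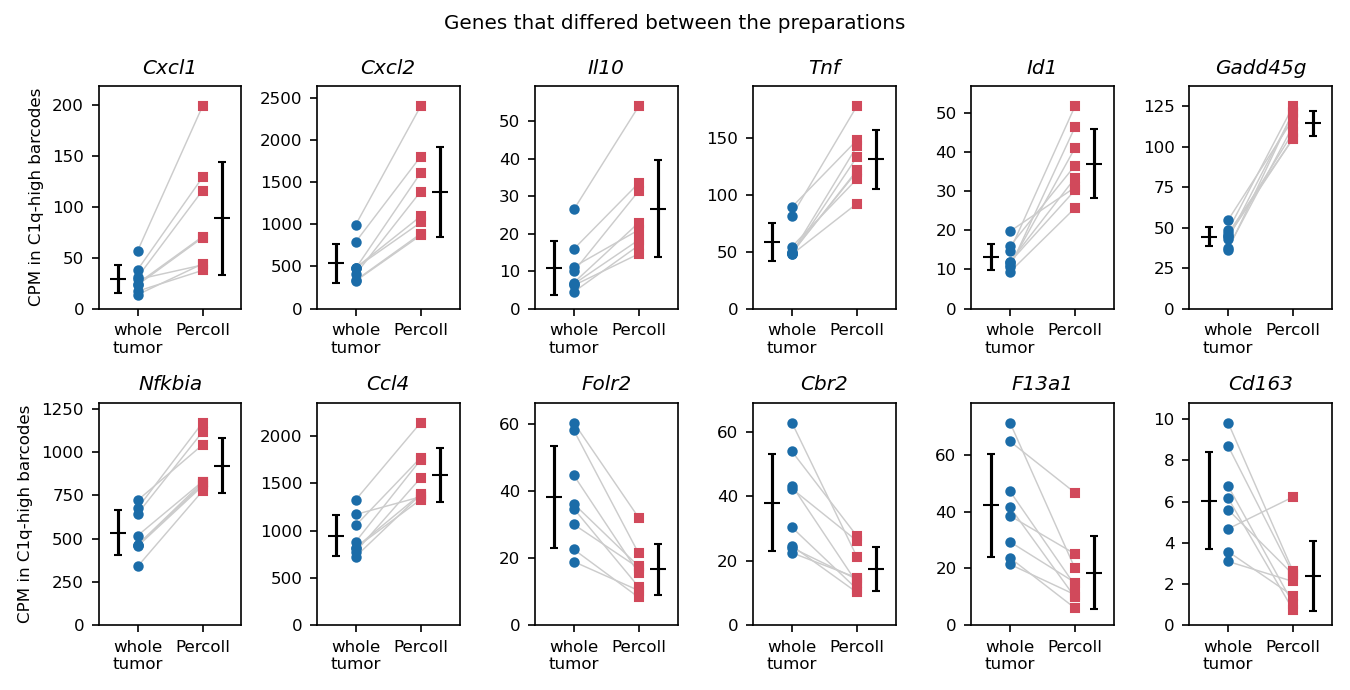
Level of 12 genes (y axes, CPM from UMIs summed over C1q-high barcodes, each axis from 0) in 8 whole-tumor libraries (blue circles) and 8 Percoll libraries (red squares), with gray lines joining the libraries of a treatment and black bars giving mean ± SD. *Cxcl1* to *Ccl4* lie higher in Percoll in 8 of 8 treatments, *Folr2*, *Cbr2*, and *F13a1* lie lower in 8 of 8, and *Cd163* is higher in Percoll in 1 treatment.

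Some calls between preparations rested on single libraries. The keratin gene *Krt5* was at 83.8 CPM in the Percoll library of PancVAX + Anti-PD-1 and at most 0.818 CPM in the other 7, and without that library its log2 fold change was −0.11. The seminal vesicle gene *Svs5* was at 189.8 CPM in the whole-tumor library of Anti-PD-1 + Anti-CTLA-4 and at 0 in the other 7. The hemoglobin genes *Hbb-bs*, *Hba-a1*, and *Hba-a2* were called lower in Percoll at levels under 7 CPM, and 5 red cell markers summed to 0.181 to 11.7 CPM in whole-tumor and 0 to 0.249 CPM in Percoll libraries.

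PancVAX alone, meaning without checkpoint antibodies, was compared with isotype control to ask how the macrophages differed with the vaccine. The interferon-γ–induced genes *Acod1*, *Serpina3g*, and *Iigp1* were higher with PancVAX. Of 12530 genes, 21 were called (0.168%), with 14 higher (0.112%) and 7 lower (0.0559%). The fit used all 16 libraries with treatment and preparation as terms. Its *P* values measure the spread between libraries, and the 2 libraries of a treatment may hold the same mice. A difference between groups of mice cannot be told apart from the vaccine. Pairs of values for a group are given as whole tumor, then Percoll.

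In the interferon-γ list, 3 of 28 genes were called higher and none lower, and 18 were higher and none lower at an unadjusted *P* under 0.05 (background 4.82% higher and 4.58% lower). The list's median log2 fold change was 0.35, beside −0.005 over all genes. *Acod1*, which makes itaconate, was at 21.1 and 29.97 CPM with PancVAX and at 11.7 and 11.6 CPM with isotype control (log2 fold change 1.07, SE 0.16, edgeR, Benjamini-Hochberg adjusted *P* = 0.016). *Serpina3g*, a protease inhibitor, was at 205 and 171 CPM with PancVAX and at 93.3 and 122 CPM with isotype control (0.82, SE 0.14, edgeR adjusted *P* = 0.042). *Iigp1*, a GTPase that acts on pathogen vacuoles, was at 179 and 122 CPM and at 99.5 and 74.7 CPM (0.78, SE 0.13, edgeR adjusted *P* = 0.032). Both libraries with PancVAX lay above both with isotype control for each of the 3 genes, as they did for 15.4% of the 12530 genes. *Cxcl9*, at 1372 and 1239 CPM with PancVAX and 831 and 926 CPM without, was not called (0.58, SE 0.13, edgeR adjusted *P* = 0.133).

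The promoters of *Acod1* and *Serpina3g*, the interferon-γ list genes with the greatest rises, are shown because factors of the STAT family, which interferon-γ activates, bind the motif TTCNNNGAA. The windows run from 250 bases before to 50 after the RefSeq start (GRCm38.p6), are on the plus strand at chr14:103046762-103047061 and chr12:104235897-104236196, and have the motif in capitals.
*Acod1*: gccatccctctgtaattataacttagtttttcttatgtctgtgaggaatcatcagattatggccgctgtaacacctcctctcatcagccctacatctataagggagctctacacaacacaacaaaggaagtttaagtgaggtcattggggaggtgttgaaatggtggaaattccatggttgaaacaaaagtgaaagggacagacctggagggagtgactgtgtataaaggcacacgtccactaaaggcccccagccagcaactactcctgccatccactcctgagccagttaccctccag
*Serpina3g*: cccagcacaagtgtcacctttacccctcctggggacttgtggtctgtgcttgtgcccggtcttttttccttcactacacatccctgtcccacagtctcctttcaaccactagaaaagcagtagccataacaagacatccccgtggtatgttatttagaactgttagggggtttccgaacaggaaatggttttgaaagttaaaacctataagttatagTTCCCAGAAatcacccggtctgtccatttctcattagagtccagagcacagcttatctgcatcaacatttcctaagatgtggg

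*Serpina3g* held 1 match and *Acod1* none. Of 32851 promoter windows of this length, 8.30% held a match on either strand (the motif letters are the same on both). A match does not show that a factor binds there.

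None of 26 type I interferon genes was called with PancVAX alone (edgeR), but 18 were higher and none lower at an unadjusted *P* under 0.05, with a median log2 fold change of 0.37. In DESeq2 12 were higher at that *P* and none was called. Without the whole-tumor library of PancVAX 9 were higher, without that of isotype control 10, and without the replicate block of preparation 11. Within the study's limits the median was 0.17 and 3 were higher. The list of tissue-resident type genes also moved, with 8 of 12 higher and none lower at that *P*, a median of 0.395, and none called (edgeR). Without the replicate block of preparation 2 of these 12 were higher. Within the study's limits 0 were higher, with a median of 0.119. Outside the lists, *Spic*, a transcription factor of red pulp and iron-handling macrophages, was at 31.6 and 41.3 CPM with PancVAX and 16.4 and 17.0 CPM without, and rose by 1.11. The protease inhibitor *Serpina3f* rose by 0.98 and *Rasgrp2* by 0.91. The transcript *Gm21188* rose by 0.93. *Maf*, a transcription factor of macrophages, rose by 0.66. *Ptgds*, a prostaglandin synthase, fell by 1.92, *Zmynd15* by 0.97, *Adam19* by 0.92, the gelatinase *Mmp2* by 0.80, *Herpud1* by 0.70, and the nuclear receptor *Nr4a3* by 0.66. Of 11 alternative analyses, *Serpina3f*, *Rasgrp2*, and *Adam19* were past the threshold in 3, *Spic*, *Maf*, *Herpud1*, and *Nr4a3* in 4, *Mmp2* in 5, and *Gm21188* and *Zmynd15* in 6. The lowest log2 fold change among these analyses was 0.36 for *Rasgrp2*, 0.63 for *Spic*, and 0.39 for *Maf*. *Arg1* was at 67.8 and 82.7 CPM with PancVAX and 36.0 and 28.3 CPM with isotype control and was not called (1.20, SE 0.33, edgeR adjusted *P* = 0.226).

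Markers of other cells moved with this comparison. The fibroblast marker sum was 105 and 155 CPM with PancVAX and 304 and 161 CPM with isotype control. The sum of the monocyte marker list was 617 and 768 CPM compared with 1025 and 730 CPM. That list holds *Fn1* and *Plac8*, which were also among the leading genes of the group of members with *Krt18* in 91.5%. Their part was not tested beyond leaving out other-cell clusters, where 104 genes were called and 9 of 27 interferon-γ genes were higher. *Acod1* (1.01, edgeR adjusted *P* = 0.066) and *Ptgds* (−1.03, edgeR adjusted *P* = 0.505) were not called there. *Acod1* was past the threshold in 3 of 11 alternative analyses, *Serpina3g* and *Iigp1* each in 5 of 11, and *Ptgds* in 2 of 11. The calls depended on all 4 libraries: without the whole-tumor library of isotype control none was called, without either library of PancVAX 1 or 2, and without the Percoll library of isotype control 16.

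Adding both antibodies to PancVAX was compared with PancVAX alone. Here too, a difference between groups of mice cannot be told apart from the antibodies. With the antibodies, 6 type I interferon–induced genes were lower, and *Nr4a3*, *Crem*, and *Rel* were among the genes that were higher. Of 12530 genes, 83 were called (0.662%), with 59 higher (0.471%) and 24 lower (0.192%). PancVAX alone is a group in this comparison and in the previous one, so a level particular to those 2 libraries enters both with opposite sign.

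In the type I interferon list, 6 of 26 genes were called lower and none higher, and 21 were lower and none higher at an unadjusted *P* under 0.05 (background 6.23% higher and 4.57% lower). The list's median log2 fold change was −0.45, beside 0.001 over all genes. *Ifit2*, one of the interferon-induced proteins that bind viral RNA or halt translation, was at 22.7 and 19.9 CPM with both antibodies and at 48.8 and 44.0 CPM with PancVAX alone (log2 fold change −1.12, SE 0.11, edgeR, Benjamini-Hochberg adjusted *P* = 0.000787). *Ifit3* was at 19.0 and 25.9 CPM compared with 57.9 and 50.6 CPM (−1.27, SE 0.18, edgeR adjusted *P* = 0.010). *Ifit1* was at 11.9 and 10.9 CPM compared with 25.7 and 19.8 CPM (−0.99, SE 0.19, edgeR adjusted *P* = 0.031). For these genes both libraries with the antibodies lay below both with PancVAX alone, as they did for 16.9% of all 12530 genes. Without the whole-tumor library of PancVAX with both antibodies, 12 genes of the list were lower at that *P* and 1 was called, and without its Percoll library 20 and 3. Without the whole-tumor or the Percoll library of PancVAX alone, 1 or 2 were called, and DESeq2 called 3. *Usp18*, which restrains interferon receptor signaling, *Oasl2*, and *Xaf1* fell by 0.76, 0.57, and 0.51. They were past the threshold in 3, 5, and 4 of 11 alternative analyses. *Isg15* (0.03) was not called.

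Over the 8 pools, each the 2 libraries of a treatment summed, PancVAX alone had the highest *Ifit2* (46.6 CPM, and 19.98 to 32.5 CPM in the others), the highest *Ifit3* (54.6 CPM, and 19.7 to 34.6 CPM), and the highest *Ifit1* (22.97 CPM, and 11.3 to 17.4 CPM). The cluster of members led by *Isg15* and *Irf7* was 3.27% of members in the whole-tumor library of PancVAX and 0.919% in that of PancVAX with both antibodies, and 3.56% and 1.64% in the Percoll libraries. Isotype control was at 1.99% in whole tumor and 3.16% in Percoll, and PancVAX + Anti-CTLA-4 at 0.457% and 1.47%. The cluster was formed from the same UMIs, so its share is not separate evidence. Within the study's limits, which leave out barcodes over 10000 UMIs, the list's median was −0.27, 7 genes were lower at an unadjusted *P* under 0.05, and none was called.

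The promoters of *Ifit1* and *Ifit3*, chosen after their values were seen, are shown because the interferon-stimulated response element bound by STAT and IRF factors holds 2 copies of GAAA separated by any 2 bases. Both windows are on the plus strand of GRCm38.p6, at chr19:34640639-34640938 and chr19:34583279-34583578, and the capitals mark matches, which lie on the opposite strand, so that the capitals show the reverse complement of the motif.
*Ifit1*: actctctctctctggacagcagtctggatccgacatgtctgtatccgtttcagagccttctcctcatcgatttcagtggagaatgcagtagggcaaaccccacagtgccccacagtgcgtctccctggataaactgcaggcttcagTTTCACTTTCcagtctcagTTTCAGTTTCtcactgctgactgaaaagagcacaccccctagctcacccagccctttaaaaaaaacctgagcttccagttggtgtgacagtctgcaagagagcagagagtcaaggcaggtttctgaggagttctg
*Ifit3*: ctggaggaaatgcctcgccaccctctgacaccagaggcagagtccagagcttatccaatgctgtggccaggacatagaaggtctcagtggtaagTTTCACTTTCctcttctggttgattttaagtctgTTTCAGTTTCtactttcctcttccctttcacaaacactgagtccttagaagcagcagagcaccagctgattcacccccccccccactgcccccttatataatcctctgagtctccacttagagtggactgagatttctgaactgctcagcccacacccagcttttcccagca

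Each window held 2 matches. Of 32851 windows, 3.44% held the motif on either strand. The windows of *Ifit2*, *Oasl2*, and *Xaf1* held no match to these letters.

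Of the 28 interferon-γ genes, *Iigp1* was the 1 called lower (−0.61), and 7 were lower and none higher at an unadjusted *P* under 0.05, with a median of −0.14. *Iigp1* was past the threshold in 5 of 11 alternative analyses, which ranged from −0.89 to −0.39. Among called genes outside the lists, *Ifitm1*, a membrane protein that restricts viruses, was at 68.7 and 58.4 CPM with both antibodies and 189 and 215 CPM with PancVAX alone (log2 fold change −1.65, SE 0.17, edgeR, Benjamini-Hochberg adjusted *P* = 0.000787). Over all pools *Ifitm1* did not follow *Ifit2*: its highest pool was PancVAX + Anti-PD-1 (312 CPM), and isotype control was at 241 CPM. *Slfn1*, *Rtp4*, *Stat2*, *Fcrls*, and *B430306N03Rik* fell by 1.03, 0.68, 0.60, 1.35, and 1.11. In that order they were past the threshold in 5, 5, 4, 10, and 5 of 11 alternative analyses. The lipid receptor *Trem2* fell by 0.52, and the scavenger receptor *Stab1*, the only call among 12 tissue-resident type genes, by 0.51. Without other-cell clusters *Trem2* (−0.45) and *Stab1* (−0.46) were under the fold limit, and they were past the threshold in 4 and 3 of 11 alternative analyses.

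The nuclear receptor *Nr4a3* was at 63.1 and 86.3 CPM with both antibodies and 32.9 and 46.0 CPM with PancVAX alone (log2 fold change 0.93, SE 0.09, edgeR, Benjamini-Hochberg adjusted *P* = 0.000787). *Nr4a2* rose by 0.61, but it was past the threshold in 3 of 11 alternative analyses, which ranged from 0.08 to 0.77. *Crem*, a regulator of cAMP responses, rose by 0.89, *Rel* by 0.67, *Malt1* by 0.66, *Nfkbie* by 0.66, and *Tnfaip3* by 0.60, and the inflammasome gene *Nlrp3*, at 96.7 and 138 CPM compared with 55.5 and 84.7 CPM, rose by 0.76. These genes were named after their values were seen. Of 11 alternative analyses, *Nlrp3* and *Nfkbie* were past the threshold in 5, *Rel* and *Tnfaip3* in 6, *Malt1* in 7, *Crem* in 8, and *Nr4a3* in 9. Of 17 immediate early and stress genes none was called (edgeR), and 5 were higher and 2 lower at an unadjusted *P* under 0.05. The class I–like gene *H2-M2* rose by 1.08, *Ptgds* by 1.49, *Cox4i2* by 1.20, *Zfp667* by 1.18, *Slc25a33* by 1.02, and the urokinase receptor *Plaur* by 0.59. *Ptgds* was past the threshold in 3 of 11 alternative analyses, which ranged from 0.23 to 1.81, and was not called without other-cell clusters. *Zfp667* was past it in 4 of 11, *Slc25a33* in 5, *Cox4i2* in 6, *H2-M2* in 7, and *Plaur* in 8. *Il1b* (0.58, SE 0.13, edgeR adjusted *P* = 0.054) and *Arg1* (−1.44, SE 0.34, edgeR adjusted *P* = 0.079) were not called.

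**Figure D4:**
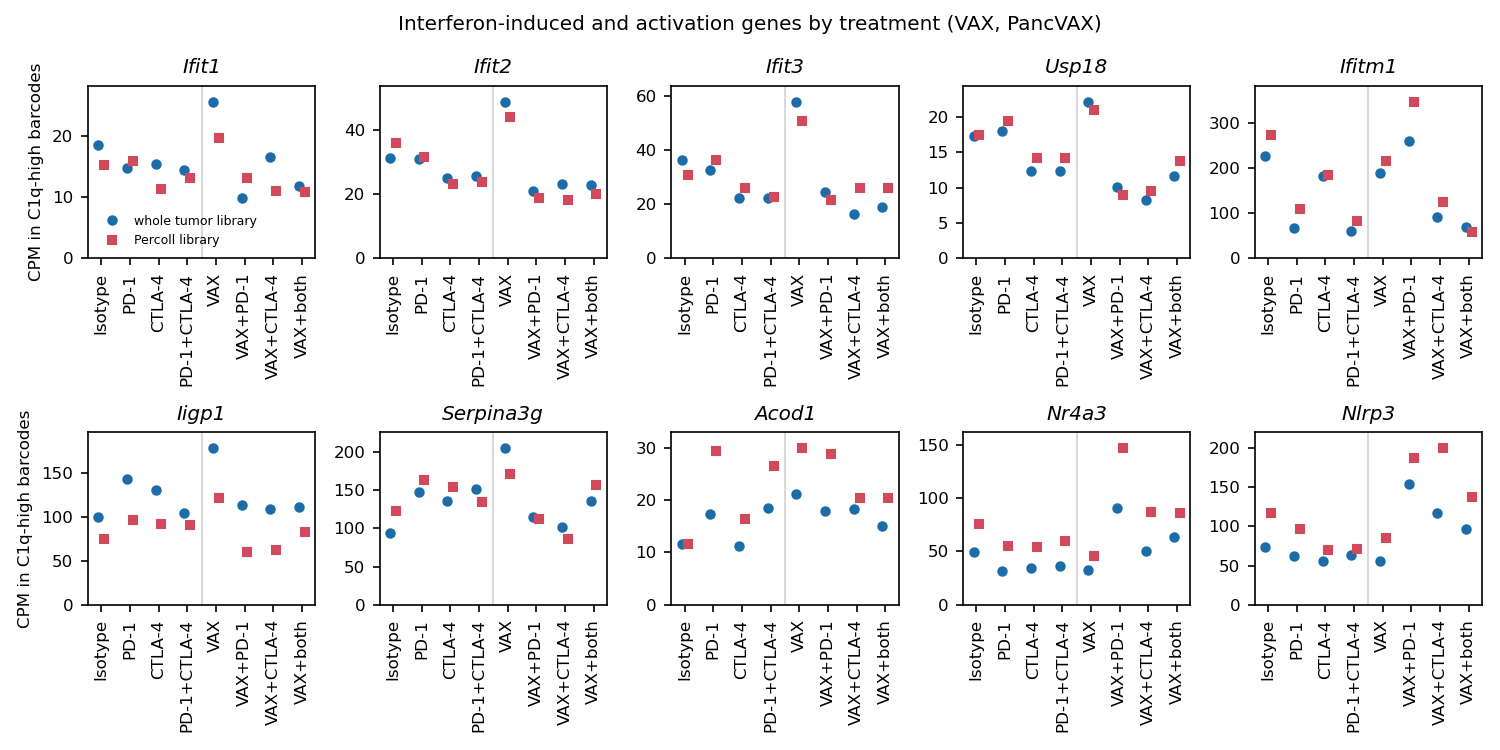
Level of 10 genes (y axes, CPM from UMIs summed over C1q-high barcodes, each from 0) in each library by treatment (x axes), with whole-tumor libraries as blue circles and Percoll libraries as red squares. *Ifit1*, *Ifit2*, and *Ifit3* are highest in both libraries of PancVAX alone, and *Nr4a3* and *Nlrp3* are higher in the libraries of PancVAX with antibodies than in those of PancVAX alone.

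Other-cell markers also moved here. The fibroblast marker sum was 394 and 193 CPM with both antibodies and 105 and 155 CPM with PancVAX alone, and the tumor or epithelial marker sum was 409 and 248 CPM compared with 227 and 197 CPM. Their part was not tested beyond leaving out other-cell clusters, where 175 genes were called and 6 of 26 type I interferon genes were lower. Without the Percoll library of PancVAX alone 6 genes were called, without its whole-tumor library 13, and without the whole-tumor or Percoll library of PancVAX with both antibodies 18 or 44. *Ifit2* was past the threshold in 10 of 11 alternative analyses and *Ifit1* in 3 of 11 (log2 fold change −1.09 to −0.16), which did not include the analysis without other-cell clusters.

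Each agent was then tested over all 8 pools, 4 with it and 4 without. For PancVAX no gene of 13195 was called by edgeR (0%), 1123 were at an unadjusted *P* under 0.05, and DESeq2 called 8. The genes below, picked without a call, are given as values. *Il10* was at 15.7 to 36.1 CPM in the pools with PancVAX (median 23.6) and 10.7 to 12.3 CPM in those without (median 11.7), which did not overlap (log2 fold change 1.09, SE 0.23, edgeR, Benjamini-Hochberg adjusted *P* = 0.574). *Gpnmb*, a glycoprotein of lipid-laden macrophages, was at 8.82 to 14.9 CPM and 4.21 to 6.97 CPM (1.07, SE 0.18, edgeR adjusted *P* = 0.574). *Thbs1*, a matrix glycoprotein that binds CD36 and CD47, was at 280 to 501 CPM and 239 to 260 CPM (0.55, SE 0.14, edgeR adjusted *P* = 0.574). Of all genes, 2.25% did not overlap in this direction. For each of these 3 genes PancVAX alone was the lowest of the 4 pools with the vaccine. Pools mix the preparations unequally, so their levels also depend on preparation. Isotype control held 728 Percoll and 1655 whole-tumor members, and Anti-PD-1 + Anti-CTLA-4 held 1611 and 1343. *Cxcl2* was at 730 to 1482 CPM and 598 to 780 CPM, which overlapped through PancVAX alone.

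Without the PancVAX-alone pool, 40 genes were called, 38 higher and 2 lower, among them *Il10* (1.31), *Nlrp3* (1.05), and *Cxcl2* (0.96). The 3 vaccine pools left all received checkpoint antibodies. Without each other pool in turn none was called. With 16 libraries in place of pools 9 were called, and 2 without the Percoll library of PancVAX + Anti-PD-1. That fit had no term for treatment. It counted both libraries of a treatment as replicates, although they may hold the same mice.

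Other macrophage genes are given as levels. *C1qa*, whose level entered the choice of members, was at 4447 to 4964 CPM with PancVAX and 4878 to 5420 CPM without, given as a description. *Csf1r* was at 516 to 620 CPM and 442 to 540 CPM (0.17), *Apoe* differed by 0.01, and *Ms4a7* by −0.04 on the log2 scale. *H2-Ab1* was at 6310 to 7163 CPM and 6211 to 7275 CPM, *Cxcl9* at 779 to 1312 CPM and 857 to 1231 CPM, and *Cd274* at 73.7 to 105 CPM and 69.9 to 90.5 CPM. The ranges overlapped, and of *Csf1r*, *Apoe*, *Ms4a7*, *H2-Ab1*, *Cxcl9*, and *Cd274* none was called. In the list of tissue-resident type genes the median log2 fold change was 0.45, and 5 of 12 were higher at an unadjusted *P* under 0.05 (background 5.03% higher and 3.48% lower). The median was 0.24 without the Anti-CTLA-4 pool, 0.29 without the PancVAX + Anti-CTLA-4 pool, and 0.24 within the study's limits, with 3 genes higher in each. In the classical activation list the median was 0.24 and 6 of 14 were higher at that *P*. The alternative activation list moved the same way, with a median of 0.21 and 5 of 14 higher at that *P*. In the interferon-γ list the median was −0.03 and 0 of 28 passed that *P*. Of the T cell, mast cell, and endothelial markers none was called (edgeR), but 9 of 9 T cell markers tested were higher with PancVAX over the pools (median 0.82, 4 at that *P*), as were 4 of 4 of mast cells (median 1.26, 2 at that *P*) and 4 of 5 of endothelial cells (median 0.875, 3 at that *P*). The T cell marker sum was 5.13 to 23.9 CPM in libraries with PancVAX and 3.21 to 12.8 CPM without, and the endothelial sum 31.1 to 58.6 CPM and 32.6 to 43.9 CPM. The mast cell sum was 0.769 to 37.5 CPM with PancVAX and 0.146 to 3.69 CPM without. All 3 ranges overlapped, and their part in these results was not tested.

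**Figure D5:**
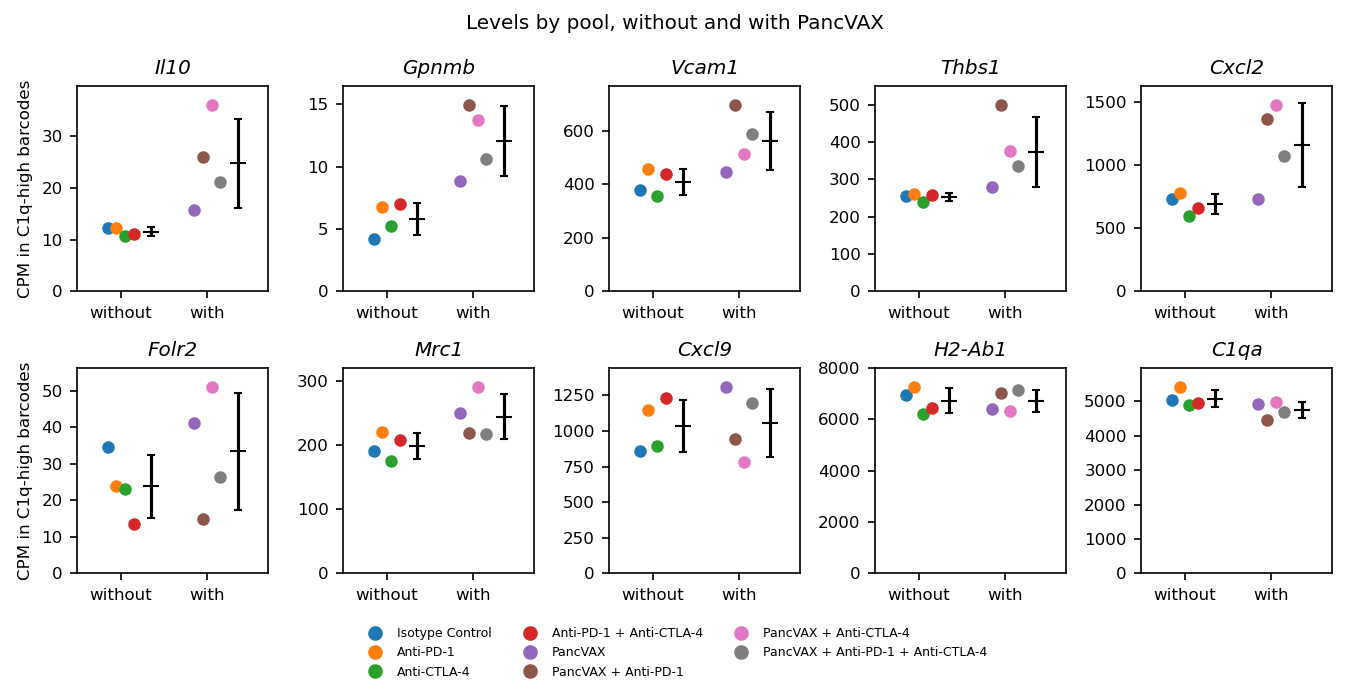
Level of 10 genes (y axes, CPM from UMIs summed over C1q-high barcodes, each from 0) in 4 pools without and 4 with PancVAX (x axes), colored by treatment, with black bars for mean ± SD. *Il10*, *Gpnmb*, and *Thbs1* do not overlap between the groups, and *C1qa*, *H2-Ab1*, and *Cxcl9* do. *C1qa* entered the choice of members, and none of the other 9 genes was called by edgeR over the pools.

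Anti–PD-1 gave 3 calls over the pools (0.0227%) and anti–CTLA-4 gave 1 (0.00758%), all of genes known from other cells. With anti–PD-1 these were the mast cell protease *Tpsb2* (0.734 to 2.98 CPM with it and 0.0496 to 0.172 CPM without), the seminal vesicle gene *Svs4* (0 to 59.7 CPM with it and 0 in the pools without), and the keratin *Krt76*, which was also the call for anti–CTLA-4 (0.279 to 21.3 CPM with it and 0 to 0.0496 CPM without). Of 20 cell cycle genes, 15 were higher with anti–CTLA-4 at an unadjusted *P* under 0.05 (background 3%), with a median log2 fold change of 0.29, and none was called by edgeR. That count was 17 in whole-tumor and 2 in Percoll libraries, 6 without called doublets, 8 with no lymphoid UMI, and 8 within the study's limits. Without the pools of PancVAX + Anti-PD-1 + Anti-CTLA-4, PancVAX + Anti-PD-1, and Anti-PD-1 in turn it was 7, 8, and 9. Without those of PancVAX alone and PancVAX + Anti-CTLA-4 in turn it was 19 and 18. Of 26 type I interferon genes, 10 were lower at that *P* (background 2.43%), with a median of −0.30, which without the PancVAX-alone pool was −0.14 with 5 lower. The count was 2 without the PancVAX + Anti-CTLA-4 pool, 4 without the Anti-CTLA-4 pool, 6 without the Anti-PD-1 pool, 3 without called doublets, and 5 within the study's limits. It was 22 without the PancVAX + Anti-PD-1 pool. With 16 libraries in place of pools, which counts both libraries of a treatment as replicates, it was 18. Markers of other cells were lower in the same comparison, though none was called (edgeR): 3 of 3 red cell markers tested (median log2 fold change −2.425, 3 at that *P*), 4 of 5 of endothelial cells (−0.945, 3 at that *P*), and 8 of 9 of T cells (−0.30, 1 at that *P*). Their sums were 0 to 1.39, 33.8 to 46.9, and 3.96 to 16.95 CPM in libraries with anti–CTLA-4 and 0 to 11.7, 31.1 to 58.6, and 3.21 to 23.9 CPM without. Their part in these results was not tested.

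The effect of PancVAX was not shown to depend on preparation. In a fit of all libraries, no gene was called by edgeR for the difference of its effect between Percoll and whole tumor (0% of 12530), 395 were at an unadjusted *P* under 0.05, and DESeq2 called 3. Compared with *Ccr2* *Ly6c2* monocyte barcodes, 465 in all, 61 of 13314 genes (0.458%) were called for a different effect of PancVAX, 32 with a higher effect in C1q-high barcodes (0.24%) and 29 with a lower one (0.218%), and DESeq2 called 5. Several of these rested on monocyte sums of 0 or on 1 monocyte pool.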

How the data were processed

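The libraries were made with 10x Genomics 5′ kits. The authors deposited raw UMI counts per gene and barcode, and the submitters' processing notes name Cell Ranger 4.0.0, Seurat, and mm10. T cell receptor contigs were deposited for the Percoll libraries. Library totals were 77132398 to 176233225 UMIs, with 728 to 1749 members in a library. Members and gene lists were chosen with earlier results of these data known. A rule on call and size named genes: up to 5 called genes per list, and the 5 greatest rises and falls at 10 CPM or more (10 for PancVAX over pools). Other genes were picked outside this rule, among them *Id2*, *Slfn1*, *Rtp4*, and *Stat2*, and *Il10* and *Thbs1* over the pools.

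Members' UMIs were summed by library or pool and tested with edgeR 4.0.16 (R 4.3.3), by its quasi-likelihood test with TMM normalization and a filter on low counts, two-sided, with Benjamini-Hochberg adjustment. Fits of libraries held treatment and preparation, and fits of pools held the 3 agents. The alternative fits of an agent on 16 libraries held the 3 agents and preparation, so both libraries of a treatment counted as replicates. The replicate number of a library marks its preparation and batch. In 28 of 28 pairs of treatments the deviations of same-preparation libraries correlated (0.141 to 0.702), so preparation was the block in those fits. Alternatives were DESeq2 1.42.0, no filter, other limits, and libraries left out. Clusters came from scanpy 1.11.5 (30 principal components of 2000 genes, 15 neighbors, Leiden clustering by igraph, resolution 0.5), and doublets were called, not removed. Of members' barcode sequences, 207 of 18757 occurred in more than 1 library, and 14.4% of members shared a barcode with any library, as did 14.4% of all barcodes. Promoter sequences are from RefSeq.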

Additional observations from a re-analysis of the deposited data

Results flagged for a closer look

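In groups of 4 to 10 pools or libraries, 16 of 128 groups of values (12.5%) held a sample set far apart from the rest. The share that chance alone would give was not tested. Over the pools, *Il1b* was lowest in PancVAX alone among the vaccine pools (1447 CPM, and 2100 to 2210 CPM in the others), and *C1qc*, a gene of the selection rule, was highest in Anti-PD-1 among pools without vaccine (4911 CPM, and 4505 to 4541 CPM).

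The Percoll library of PancVAX + Anti-PD-1, which held the most members in other-cell clusters, was the highest Percoll library for *Krt5* (83.8 CPM, and 0 to 0.818 CPM in the others), *Vegfa* (148 CPM, and 94.5 to 117 CPM), *Oasl1* (69.6 CPM, and 24.9 to 43.6 CPM), and *Cd163* (6.22 CPM, and 0.734 to 2.61 CPM). The whole-tumor library of the same treatment was the highest of its preparation for *Plaur* (179.5 CPM, and 82.8 to 126 CPM), *Il1r2* (125 CPM, and 42.1 to 71.8 CPM), and *Krt5* (2.34 CPM, and 0 to 0.504 CPM). In the Percoll library of PancVAX + Anti-CTLA-4, *Cxcl3* (58.9 CPM, and 15.9 to 22.7 CPM) and the resident-type gene *F13a1* (46.7 CPM, and 5.97 to 25.1 CPM) were highest, and *Hbb-bs* was at 0.163 CPM, with 0 in the other Percoll libraries. *Svs5* was at 189.8 CPM in the whole-tumor and 4.91 CPM in the Percoll library of Anti-PD-1 + Anti-CTLA-4, *Hbb-bs* at 6.37 CPM in the whole-tumor library of isotype control, and *Hba-a2* at 0.117 CPM in the Percoll library of PancVAX with both antibodies.

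In a fit of the difference of the PancVAX effect between C1q-high and monocyte barcodes, 61 genes were called (edgeR with Benjamini-Hochberg). They are given as fitted values only. The fitted difference, as the log2 fold change in C1q-high barcodes minus that in monocytes, was, among called genes that averaged at least 10 CPM over the pools in C1q-high barcodes, greatest for *Gbp2b* (9.25), *Cd36* (3.45), *Arg1* (3.32), *Cxcl1* (2.31), and *Pf4* (2.23), and lowest for *Igfbp7* (−6.65), *Col1a2* (−6.34), *Cox4i2* (−4.11), *Col1a1* (−3.23), and *Mgl2* (−2.79). The monocyte sums rested on 16 to 52 barcodes a library. *Gbp2b* was at 0 in the monocytes of all 4 PancVAX pools and *Cd36* in 3 of 4, so their fitted differences depend on the prior count and are neither measured folds nor bounds. Single monocyte pools carried others: *Igfbp7* was at 473.6 CPM in PancVAX and at most 1.99 CPM in the other 7 pools, *Cox4i2* at 79.6 CPM in PancVAX and at most 7.55 CPM in the others, and *Col1a1* at 80.3 CPM in PancVAX with both antibodies and at most 11.0 CPM in the others. These differences are therefore not given as effects of PancVAX.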

How the results depend on the processing

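Called genes with PancVAX over the pools (none in the main analysis, edgeR) were 8 in DESeq2, 7 with no filter on low counts, 9 with 16 libraries and preparation and 2 in the same fit without the Percoll library of PancVAX + Anti-PD-1, 1 in whole-tumor libraries only, 1 in Percoll libraries only, 1 without other-cell clusters, and 0 to 40 leaving out each pool. Anti–PD-1 calls (3) became 7 in DESeq2, 13 with no filter, 0 within either preparation, 0 at a C1q limit of 10, 0 without called doublets, 1 within the study's limits, 1 with no lymphoid UMI, and 0 to 7 leaving out each pool. Anti–CTLA-4 calls (1) became 4, 7, 2 with 16 libraries, 0 in Percoll libraries, 0 and 2 at C1q limits of 10 and 40, 0 within the study's limits, 0 without called doublets, and 0 to 9. The fits of 16 libraries in this paragraph counted both libraries of a treatment as replicates.

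PancVAX against isotype control (21) gave 33 in DESeq2, 93 with no filter, 3 with only the 4 libraries, 8 within the study's limits, 104 without other-cell clusters, 37 without the Percoll library of PancVAX + Anti-PD-1, and 0 to 16 leaving out each library. PancVAX with both antibodies against PancVAX (83) gave 164 with no filter, 10 within the study's limits, 175 without other-cell clusters, and 6 to 44 leaving out each library. Without the replicate block of preparation these comparisons gave 0 and 2 calls, and Percoll against whole tumor gave 356 without treatment in the fit. Percoll against whole tumor gave 754 without other-cell clusters. The difference of the PancVAX effect between preparations gave 45 with no filter and 3 in DESeq2, and that between C1q-high and monocyte barcodes 5 in DESeq2. The causes were not tested.

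Among called genes, reversed signs were *Krt5* without the Percoll library of PancVAX + Anti-PD-1 (−0.11), *Svs5* (0.36) and *Svs4* (0.37) in DESeq2 between preparations, and *Igfbp7* (1.07) in DESeq2 against monocytes. The anti–CTLA-4 share difference of −1.10 points was 1.73 within the study's limits. The PancVAX difference in the log2 ratio of C1q-high to monocyte barcodes (−0.02, not called) was 0.06 within those limits, 0.02 at a mitochondrial limit of 5%, 0.03 without the Percoll library of PancVAX + Anti-PD-1, and −0.21 to 0.17 leaving out each pool. With 4 pools against 4, the share tests could not pass the adjusted threshold for 1 agent alone.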

Other observations

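B cell and dendritic cell genes were also detected in C1q-high barcodes. *Ighm*, the heavy chain of IgM, had a UMI in 47.1% of members and 9.67% of other barcodes, and *Cd79b* in 19.2% and 2.95%, although a *Cd79a* UMI removed a barcode. *Xcr1* and *Clec9a*, markers of cross-presenting dendritic cells, were detected in 10.7% and 8.51% of members and in 1.154% and 1.303% of others, with *Flt3*, a growth factor receptor of dendritic cells, in 0.179% of members. The summed level of 6 B cell markers in members lay between 158 and 201 CPM in the 16 libraries, carried by *Ighm* (120 to 173 CPM) and *Cd79b* (26.7 to 46.05 CPM). The other 4 B cell markers, and 4 of 10 dendritic cell markers, were under 1 CPM over all members. What these UMIs come from was not tested.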
